A study of Mus musculus with 12 samples.

Results

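The glycolysis and hypoxia genes described here are 37 genes chosen by symbol: the oxygen-regulated transcription factor subunit Hif1a and 2 of its hydroxylases, the glucose transporter Slc2a1, the enzymes from hexokinase to lactate dehydrogenase with their regulators and the lactate transporters, and 10 genes outside glycolysis that are known targets of hypoxia-inducible factor 1 (HIF-1). All 37 passed the filter on low counts, out of 13800 genes that passed it and 54532 in the table. A further identifier that carries the symbol Aldoa held 0 to 8 counts in each library and did not pass. They were measured by poly-A RNA sequencing of macrophages grown from the bone marrow of 8-week-old male mice with 50 ng/mL macrophage colony-stimulating factor. The 4 groups of 3 libraries were Itga9-Lyz2-cKO cells given Pg (cKO Pg), Itga9-Lyz2-cKO cells left as controls (cKO control), Itga9-Lyz2-cHet cells given Pg (cHet Pg) and Itga9-Lyz2-cHet cells left as controls (cHet control). The agent that the labels call Pg was given for 2 hours at a multiplicity of infection of 1:20. The genotype names join the integrin gene Itga9 with Lyz2, a myeloid gene whose promoter is widely used to drive Cre recombinase, but the labels describe neither the alleles nor a Cre-free control. The labels do not state whether libraries within a group represent different animals or cultures. The p-values therefore cover the variation among the libraries sequenced, part of which can be technical.

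Glycolysis splits glucose into pyruvate and yields ATP without oxygen. The transcription factor HIF-1 pairs the regulated subunit HIF-1alpha, encoded by Hif1a, with a partner that is present throughout, and prolyl hydroxylases mark HIF-1alpha for destruction when oxygen is available. HIF-1 is known to raise the transcription of glucose transporters, glycolytic enzymes and genes such as Vegfa and Adm, and activated macrophages are known to rely on glycolysis even in the presence of oxygen.

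Library totals lay between 14527674 and 16793803 counts. Itga9 ranged from 7.84 to 13.6 CPM, the counts scaled to a common library size, in cKO Pg and from 5.98 to 11.5 CPM in cKO controls, against 19.4 to 34 CPM in cHet Pg and 17.9 to 32.3 CPM in cHet controls. The macrophage markers Adgre1, Csf1r, Cd68, Itgam, Mertk, Fcgr1 and Lyz2 were above 0 in all groups. The summed level of 10 stromal markers was 4.84 to 7.84 CPM in cKO Pg and 3.18 to 4.7 CPM in cKO controls, against 44.8 to 53.7 CPM in cHet Pg and 42.3 to 48.2 CPM in cHet controls. Within each group the libraries also differed along a shared component that held 27% of the within-group variance, computed without the 37 genes. Its positive side held cKO Pg 3, cKO control 2 and 3, cHet Pg 1 and cHet control 2 and 3, where Itgax, 1 of 7 dendritic cell markers examined, lay at 36.2 to 59.3 CPM. The other 6 libraries had 103 to 137 CPM of Itgax, but Flt3, another of the 7, was higher on the positive side in both control groups, at 1.93 and 1.69 CPM beside 1.13 CPM in cKO and 1.34 and 1.49 CPM beside 0.723 CPM in cHet. The split is balanced between the genotypes but not between Pg and control, and it is taken up at the end of the results.

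Pg changed 17 of the 37 genes in cKO cells, with 14 higher and 3 lower, which is 45.9% against 34.0% of all genes tested (16.9% higher, 17.1% lower). In cHet cells it changed 20, with 15 higher and 5 lower, which is 54.1% against 36.1% of all genes (18.0% in each direction). The 5 lower became 2 without cHet Pg 1 or cHet Pg 3, and 3 without cKO control 2, without any 1 of the 3 cHet controls, with no filter on low counts or with DESeq2. Changed here means an adjusted p under 0.05 in edgeR's quasi-likelihood test over all 13800 genes. Among the 37 genes, 13 were higher with Pg in both genotypes and 3 were lower in both, against 12.5% and 11.8% of all genes. The 13 were Hif1a, Slc2a1, Hk1, Hk2, Hk3, Pfkp, Pfkfb3, Eno2, Pkm, Adm, Ddit4, Ndrg1 and Mxi1, and the 3 were Pfkl, Kdm3a and Ankrd37. None was higher in 1 genotype and lower in the other. The median log2 fold change of the 37 genes was 0.15 in cKO and 0.19 in cHet, against 0 and -0.01 over all genes. Some dendritic cell markers were also higher with Pg: 3 of 7 in cKO (Xcr1 by 1.87, Ccr7 by 1.5 and Zbtb46 by 1.25 on the log2 scale) and 2 of 7 in cHet (Xcr1 by 2.62 and Ccr7 by 1.16), each under 5 CPM in all libraries. Flt3, Itgax, Cd209a and Clec9a were called in neither genotype. Clec9a lay lower in both, at -0.42 in cKO and -0.24 in cHet, and Cd209a lay at 0.79 in cKO and -0.47 in cHet. Flt3 and Itgax lay higher in both. Of 8 macrophage markers, 3 were called higher in cKO and 2 in cHet. All genes called higher were 16.9% in cKO and 18.0% in cHet, as given above. The summed level of the 7 dendritic cell markers was 59.1 to 131 CPM in cKO Pg and 48.7 to 132 CPM in cKO controls, and 69.1 to 149 CPM in cHet Pg and 41.4 to 121 CPM in cHet controls, and none of the 7 was at 0 in a whole group. Their part in the Pg response was not tested.

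The count in each direction depends on the scaling. On library size alone, in place of the TMM scaling that centres the fold changes of most genes on 0, the median of all genes moved by -0.24 in both Pg comparisons, and the 37 genes split into 9 higher and 10 lower in cKO and 11 higher and 9 lower in cHet. The share of all genes called on that scale is not given, so a general shift in calls cannot be told apart. The calls of Hk3 and Pkm in both genotypes, of Eno2, Vegfa and Ndrg1 in cKO and of Ldha and Pgam1 in cHet were lost on that scale. Hif1a, Slc2a1, Hk1, Hk2, Pfkp, Pfkfb3, Adm, Ddit4, Mxi1, Pfkl and Kdm3a kept direction and call in both genotypes under each alternative tried.

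**Figure D1:**
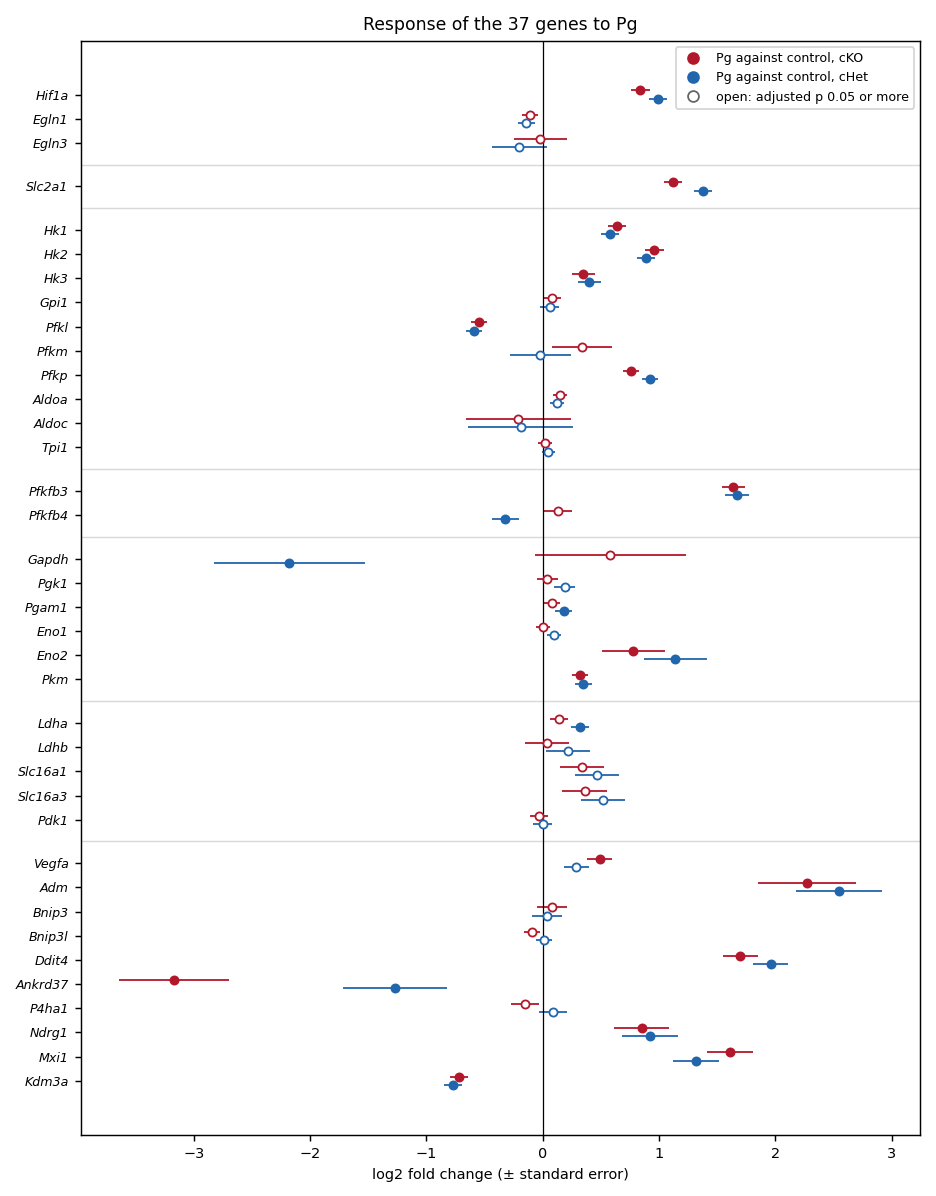
The log2 fold change of each of the 37 genes with Pg against control is plotted as a point with its standard error, cKO in red and cHet in blue, with genes grouped by role and filled points past an adjusted p of 0.05. Adm has the largest rise in both genotypes, at 2.27 and 2.55, and Ankrd37 the lowest value in cKO, at -3.17, while the Gapdh points of the 2 genotypes lie far apart with wide errors.

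Among the regulators of HIF-1, the transcript of the factor itself rose, while those of the prolyl hydroxylases Egln1 and Egln3 did not pass the test with TMM scaling. Hif1a (chromosome 12, 73901375 to 73947530, plus strand; mm10, as are all gene positions here) had 454, 461 and 556 CPM in cKO Pg, against 269, 263 and 287 CPM in cKO controls. In cHet it had 458, 404 and 430 CPM with Pg, against 209, 227 and 216 CPM in controls. Every Pg library was above every control library. The log2 fold change was 0.84 ± 0.08 in cKO (adjusted p = 2.41e-07) and 0.99 ± 0.08 in cHet (adjusted p = 3.37e-08), where ± is the standard error. Egln1, which encodes the main oxygen-sensing prolyl hydroxylase, lay between 50.4 and 60.3 CPM over all 12 libraries, with fold changes of -0.11 ± 0.07 in cKO and -0.14 ± 0.07 in cHet. Both passed on library size alone, at -0.35 ± 0.07 and -0.39 ± 0.07. Egln3, another prolyl hydroxylase, ranged from 5.07 to 12.1 CPM, and its Pg and control libraries overlapped.

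Of 98 further genes of these pathways that were listed with earlier results of these data known, 97 were in the table and 83 passed the filter. Pg raised 20 and lowered 16 of them in cKO, and raised 12 and lowered 18 in cHet, which is 43.4% and 36.1% called, against 34.0% and 36.1% of all genes. On library size alone these splits were 6 higher and 36 lower in cKO, and 4 higher and 37 lower in cHet, where no share of all genes is given either. With TMM scaling, 2 of 13 tested regulators of HIF rose and 4 fell in each genotype. This is 46.2% called, beside 34.0% of all genes in cKO and 36.1% in cHet. The 4 that fell were the same in both: Vhl, the substrate-binding part of the ubiquitin ligase that removes HIF-1alpha, fell by 0.84 ± 0.10 in cKO and 0.78 ± 0.10 in cHet on the log2 scale. Hif1an, the asparagine hydroxylase that blocks the HIF-1alpha transactivation domain, fell by 0.69 ± 0.09 in cKO and 0.74 ± 0.09 in cHet. The coactivator Ep300 and Cited2, which competes with HIF-1alpha for it, were the others. Eloc, which encodes elongin C, a partner of the Vhl protein, rose in both genotypes, by 0.36 ± 0.09 in cKO and 0.61 ± 0.09 in cHet.

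Glucose uptake was represented by Slc2a1 (chromosome 4, 119108711 to 119137983, plus strand), which encodes the transporter GLUT1. It had 173, 165 and 192 CPM in cKO Pg, against 79.8, 76 and 88.8 CPM in cKO controls. In cHet the values were 182, 170 and 177 CPM with Pg, against 75.4, 64.2 and 63.9 CPM in controls. The Pg and control libraries did not overlap in either genotype. The log2 fold change was 1.12 ± 0.08 in cKO (adjusted p = 1.02e-08) and 1.38 ± 0.08 in cHet (adjusted p = 8.27e-10).

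Pfkfb3 had the largest rise among the genes of glycolysis in both genotypes. The gene (chromosome 2, 11471433 to 11554077, minus strand) encodes the enzyme that makes fructose 2,6-bisphosphate, the strongest known activator of phosphofructokinase. It had 546, 592 and 703 CPM in cKO Pg, against 219, 183 and 187 CPM in cKO controls, and 763, 638 and 663 CPM in cHet Pg, against 228, 199 and 221 CPM in cHet controls. The libraries stood well apart, with log2 fold changes of 1.64 ± 0.10 in cKO (adjusted p = 7.4e-09) and 1.67 ± 0.10 in cHet (adjusted p = 6.26e-09). Pfkfb4, its relative, had 39, 36.3 and 35.2 CPM in cKO Pg, against 36.5, 34.2 and 30.5 CPM in cKO controls. In cHet it had 29, 40.3 and 28 CPM with Pg, against 42.5, 37.9 and 40.9 CPM in controls. The cHet Pg library 2 lay among the cHet controls, and the call in cHet (-0.32 ± 0.12, adjusted p = 0.0424) was lost in 6 of 12 fits that left out 1 library: without cKO Pg 2, cKO control 2, cHet Pg 1 or 3, or cHet control 1 or 3, with adjusted p between 0.0566 and 0.188. It was also lost with DESeq2 (adjusted p = 0.0658) and with only the groups compared (adjusted p = 0.0825).

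All 3 hexokinases, which trap glucose as glucose 6-phosphate, rose in both genotypes. Hk2 (chromosome 6, 82725025 to 82774454, minus strand), the inducible isozyme, had 130, 141 and 151 CPM in cKO Pg, against 74.8, 72.3 and 69.6 CPM in cKO controls. In cHet it had 166, 143 and 153 CPM with Pg, against 91.2, 79.8 and 78.8 CPM in controls. The log2 fold changes were 0.96 ± 0.08 in cKO and 0.89 ± 0.08 in cHet, with no overlap between Pg and control. Hk1, the widely expressed isozyme, rose by 0.64 ± 0.08 in cKO and 0.58 ± 0.08 in cHet. Hk3, the isozyme of myeloid cells, rose by 0.35 ± 0.10 in cKO (adjusted p = 0.0102; 0.0535 without cKO control 2) and 0.40 ± 0.10 in cHet (adjusted p = 0.00475).

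Phosphofructokinase, the committed step of glycolysis, showed opposite changes in 2 of its 3 isozymes. Pfkp, the platelet type, had 135, 129 and 140 CPM in cKO Pg, against 86, 74 and 79.1 CPM in cKO controls, and 152, 146 and 151 CPM in cHet Pg, against 86.4, 76.2 and 74.6 CPM in cHet controls. It rose by 0.76 ± 0.07 in cKO (adjusted p = 2.73e-07) and 0.92 ± 0.07 in cHet (adjusted p = 2.3e-08). Pfkl, the liver type, had 127, 122 and 126 CPM in cKO Pg, against 172, 178 and 200 CPM in cKO controls, and 103, 109 and 116 CPM in cHet Pg, against 164, 162 and 166 CPM in cHet controls. It fell by 0.55 ± 0.07 in cKO (adjusted p = 4.44e-06) and by 0.59 ± 0.07 in cHet (adjusted p = 2.14e-06), and for both isozymes the Pg and control libraries were apart. The muscle type Pfkm ranged from 9.64 to 23.7 CPM and did not pass the test.

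**Figure D2:**
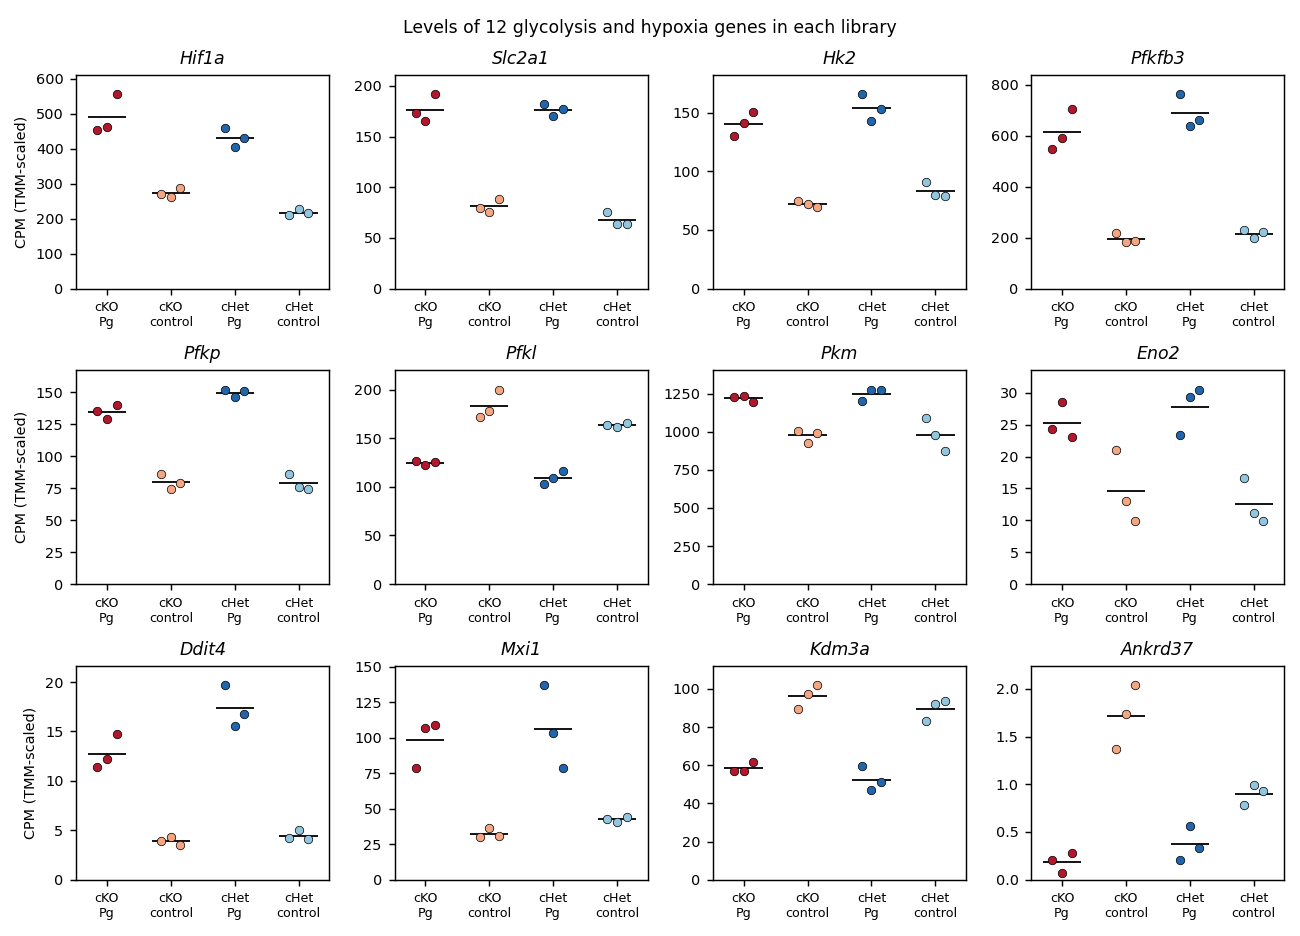
TMM-scaled CPM of 12 of the genes is plotted for each library as a point on axes that start at 0, with the group mean as a line and groups ordered cKO Pg, cKO control, cHet Pg and cHet control. In each panel the Pg libraries of a genotype lie apart from its controls, above them except for Pfkl, Kdm3a and Ankrd37, which lie below.

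Set against each other per kilobase of deposited gene length, the isozymes changed in proportion. Pfkp made up 29.2% ± 0.5 of the phosphofructokinase level in cKO Pg and 15.8% ± 2.18 in cKO controls, and 34% ± 0.463 in cHet Pg and 16.5% ± 1.69 in cHet controls (SD, n = 3 each). The share of Hk2 among the hexokinases was 17.6% ± 1.44 in cKO Pg and 12.6% ± 0.727 in cKO controls, and 16.6% ± 1.69 in cHet Pg and 12.6% ± 0.754 in cHet controls. Pfkfb3 held 91.4% ± 1.38 of the level of the Pfkfb3 and Pfkfb4 pair in cKO Pg and 78.9% ± 1.26 in cKO controls. The same share was 93.1% ± 1.8 in cHet Pg and 77.5% ± 0.241 in cHet controls. For these 3 families the Pg libraries of a genotype were all above its controls. A share within a family does not depend on the scaling of the libraries, but its size depends on the gene length used. With the length of the longest protein-coding transcript in place of the deposited length, a choice made after the data were seen, the Pfkp share was 44.8% ± 0.319 in cKO Pg and 26.2% ± 2.9 in cKO controls, and 50.5% ± 0.801 in cHet Pg and 27.5% ± 2.19 in cHet controls. Of the 50-base words of the Pfkp transcript, 17.1% also occur in 1 other annotated gene, so part of its counts is uncertain. The shares of Aldoc among the aldolases, of Ldhb among the lactate dehydrogenases and of Slc16a1 among the 2 lactate transporters overlapped between Pg and control in both genotypes.

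**Figure D3:**
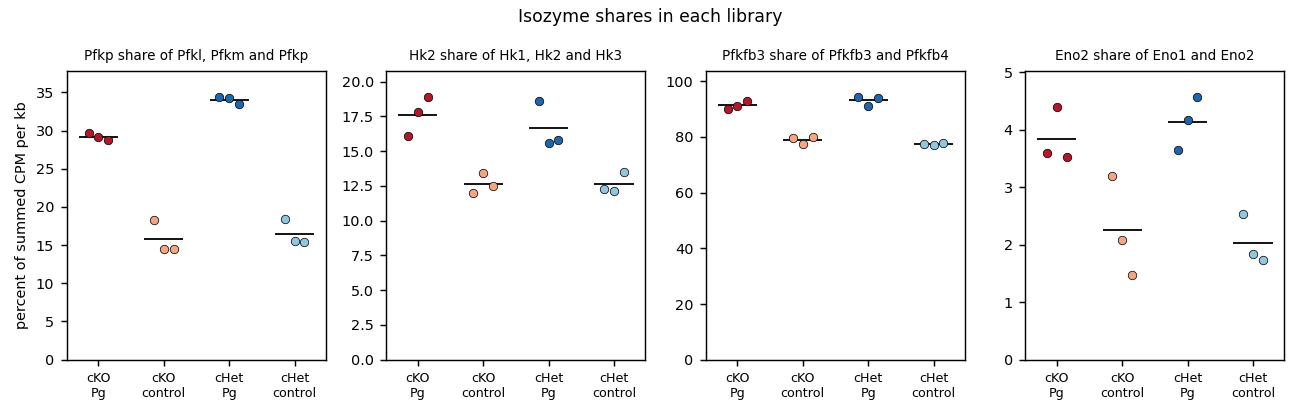
The share of Pfkp, Hk2, Pfkfb3 and Eno2 in the summed CPM per kilobase of their isozymes is plotted in percent for each library, on axes that start at 0, with group means as lines. The Pfkp share lies at 28.7% to 34.4% in the Pg libraries, against 14.5% to 18.4% in the controls.

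Enzymes of the middle and later steps held the 6 highest levels of the 37 genes per kilobase of deposited gene length. Per kilobase, averaged over the 12 libraries, Aldoa, the main aldolase, led with 331 CPM per kb (305 to 357), followed by pyruvate kinase Pkm with 221 (174 to 255), and their ranges did not overlap. Pgam1, Pgk1, Ldha and Eno1 came next with 160, 157, 155 and 133 CPM per kb, and the ranges of neighbours in this order overlapped. The order depends on the gene length used. Eno1 has a deposited length of 5379 bases and a longest protein-coding transcript of 2027 bases, against 1831 and 1775 bases for Pgam1. An order by transcript length was not examined. At the other end were Adm with 0.715 and Ankrd37 with 0.515 CPM per kb. Aldoa, Aldoc, Gpi1, Tpi1, Pgk1 and Eno1 passed the test in neither genotype, with fold changes for Pg from -0.21 (Aldoc, in cKO) to 0.19 (Pgk1, in cHet). On library size alone, Tpi1 was called lower in both genotypes, at -0.23 and -0.20, and Eno1 in cKO, at -0.25. Aldoa came close, at 0.15 ± 0.06 in cKO (adjusted p = 0.0549; 0.0411 with DESeq2 size factors, 0.0399 without cKO control 3) and 0.12 ± 0.06 in cHet (adjusted p = 0.102). The DESeq2 Wald test called it in both, with adjusted p of 0.0131 in cKO and 0.0358 in cHet.

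Pkm had 1228, 1235 and 1192 CPM in cKO Pg, against 1007, 927 and 995 CPM in cKO controls. In cHet it had 1204, 1271 and 1277 CPM with Pg, against 1093, 978 and 872 CPM in controls. Pkm rose by 0.32 ± 0.07 in cKO (adjusted p = 0.00233) and by 0.35 ± 0.07 in cHet (adjusted p = 0.00104), but only by 0.08 and 0.11 on library size alone. Eno2, the neuronal enolase, had 24.3, 28.5 and 23 CPM in cKO Pg, against 21, 13.1 and 9.92 CPM in cKO controls, and 23.3, 29.3 and 30.5 CPM in cHet Pg, against 16.6, 11.2 and 9.84 CPM in cHet controls. The first control library of each genotype was the closest to Pg. Its log2 fold change of 1.14 ± 0.27 passed in cHet (adjusted p = 0.00783), while the call at 0.78 ± 0.27 in cKO (adjusted p = 0.0461) was lost in 9 of 12 fits that left out 1 library, at up to 0.136, and held without cKO control 1, cHet control 1 or cHet control 3. It was also lost with no filter on low counts (adjusted p = 0.138) and with only the groups compared (adjusted p = 0.0585). Pgam1 passed in cHet alone, at 0.18 ± 0.07 (adjusted p = 0.0361), and lost its call without cHet Pg 2 or 3 or cHet control 2 or 3, with no filter (adjusted p = 0.0922) and with only the groups compared (adjusted p = 0.0576). Whether Pgam1 responded differently in the 2 genotypes was tested by the interaction, which gave -0.10 ± 0.09 (adjusted p = 0.721).

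The summed level of the 16 enzymes from hexokinase to pyruvate kinase was 5287, 5289 and 5418 CPM in cKO Pg, against 4667, 4617 and 4889 CPM in cKO controls. In cHet the sum was 5502, 5511 and 5479 CPM with Pg, against 5019, 4829 and 4501 CPM in controls. On library size alone the order of the means turned round, with 4907 CPM in cKO Pg and 5149 CPM in cKO controls, and 5033 CPM in cHet Pg and 5184 CPM in cHet controls. The sum as a whole therefore has no direction that is independent of the scaling.

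Gapdh, the glyceraldehyde 3-phosphate dehydrogenase often used as a reference gene, was the most variable of the 37. It had 9.68, 57.8 and 12.9 CPM in cKO Pg and 17, 16.6 and 19.8 CPM in cKO controls, and 12.1, 19.7 and 11.7 CPM in cHet Pg, against 88.4, 66.5 and 41.7 CPM in cHet controls. The cHet controls and the single library cKO Pg 2 were high. It was called lower with Pg in cHet, at -2.18 ± 0.65 (adjusted p = 0.0294), and this call was lost in 5 of 12 fits that left out 1 library, those without cHet Pg 1, 2 or 3 or cHet control 1 or 2, and with no filter on low counts (adjusted p = 0.0541). Of its 50-base words, 82.5% occur in annotated transcripts of 222 other genes. Its level per kilobase of deposited gene length was 27th of the 37, below Tpi1 and Pgk1, the enzymes beside it in the pathway. The 72 genes that share at least 10% of its words held 422 to 686 counts together per library, beside 144 to 1588 counts for Gapdh. Its counts are uncertain for that reason. The shared part was also large for Eno1 (72.2%), Pgk1 (68%), Bnip3 (62.4%), Pgam1 (41.5%) and Pkm (34.4%).

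At the end of the pathway, Ldha, the lactate dehydrogenase subunit that favours lactate, had 534, 546 and 492 CPM in cKO Pg and 508, 439 and 478 CPM in cKO controls, and 561, 601 and 604 CPM in cHet Pg, against 544, 441 and 425 CPM in cHet controls. It rose in cHet, by 0.32 ± 0.08 (adjusted p = 0.00615), and in cKO its fold change was 0.14 ± 0.08 (adjusted p = 0.222). The difference between these responses was -0.18 ± 0.12 (adjusted p = 0.582). The lactate transporters Slc16a1 and Slc16a3, the subunit Ldhb and Pdk1 passed in neither genotype in edgeR's test with TMM scaling. Pdk1 encodes a kinase that inhibits pyruvate dehydrogenase. On library size alone Pdk1 was called lower in both, at -0.27 and -0.25. Slc16a3 had fold changes of 0.36 ± 0.19 in cKO and 0.52 ± 0.19 in cHet (adjusted p = 0.178 and 0.0572). In cHet it passed with DESeq2 (adjusted p = 0.00519), with only the groups compared (adjusted p = 0.00539) and without cKO Pg 1, cKO Pg 3, cKO control 1 or cHet Pg 3 (adjusted p from 0.015 to 0.0472). Slc16a1 passed in cHet with no filter on low counts (adjusted p = 0.0122) and without cKO control 1, cHet Pg 1 or cHet control 1 (adjusted p from 0.00572 to 0.0424), and in cKO without cKO control 1 (adjusted p = 0.0486). Among 14 tested genes of pyruvate transport, pyruvate dehydrogenase and its regulators, 4 rose and 3 fell in cKO, and 1 rose and 3 fell in cHet. This is 50% and 28.6% called against 34.0% and 36.1% of all genes. The pyruvate dehydrogenase phosphatase Pdp2 and the phosphatase regulator Pdpr fell in both genotypes. Of 11 pentose phosphate genes, 4 rose and 1 fell in cKO, and 3 rose and 1 fell in cHet, or 45.5% and 36.4% called. G6pdx, the entry enzyme of that pathway, rose by 0.35 ± 0.06 in cKO and 0.18 ± 0.06 in cHet, sizes close to the shift between the scalings.

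The 10 HIF-1 targets outside glycolysis held the widest changes. Ddit4 (chromosome 10, 59949669 to 59951834, minus strand) encodes REDD1, an inhibitor of the growth kinase mTORC1. It had 11.4, 12.2 and 14.7 CPM in cKO Pg, against 3.87, 4.36 and 3.56 CPM in cKO controls, and 19.7, 15.6 and 16.8 CPM in cHet Pg, against 4.23, 5.07 and 4.11 CPM in cHet controls. The groups were far apart, with log2 fold changes of 1.70 ± 0.15 in cKO (adjusted p = 1.95e-07) and 1.96 ± 0.15 in cHet (adjusted p = 2.15e-08). Adm, which encodes the vasodilator peptide adrenomedullin, rested on few reads: 18, 18 and 24 counts in cKO Pg, against 7, 4 and 3 in cKO controls, and 43, 33 and 34 in cHet Pg, against 11, 5 and 6 in cHet controls. It rose by 2.27 ± 0.42 in cKO (adjusted p = 0.000425) and 2.55 ± 0.37 in cHet (adjusted p = 3.51e-05), with no overlap in either genotype.

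Mxi1, which encodes an antagonist of Myc, had 78.3, 107 and 109 CPM in cKO Pg, against 29.9, 36.1 and 30.6 CPM in cKO controls. In cHet the values were 137, 103 and 78.7 CPM with Pg, against 42.7, 40.9 and 44.3 CPM in controls. The Pg libraries spread widely but lay above all controls, and Mxi1 rose by 1.61 ± 0.20 in cKO and 1.32 ± 0.20 in cHet. Ndrg1, a stress-induced gene linked to differentiation, rose by 0.85 ± 0.24 in cKO (adjusted p = 0.0237) and 0.92 ± 0.24 in cHet (adjusted p = 0.0147). The call in cKO was lost without cKO Pg 3 or any 1 of the 3 cKO controls, with no filter on low counts (adjusted p = 0.0616) and with the replicate number as a block (adjusted p = 0.0502). Vegfa, the main angiogenic growth factor, had 385, 415 and 348 CPM in cKO Pg, against 225, 291 and 302 CPM in cKO controls, and 266, 339 and 333 CPM in cHet Pg, against 246, 268 and 255 CPM in cHet controls. It rose in cKO, by 0.49 ± 0.11 (adjusted p = 0.00437). In cHet its 0.29 ± 0.11 did not pass (adjusted p = 0.0644), although the replicate block gave 0.0239, DESeq2 0.0454, only the groups compared 0.0259 and no filter 0.00129, and it passed without cKO control 1 or cHet Pg 1. The interaction for Vegfa was 0.20 ± 0.16 (adjusted p = 0.682).

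Kdm3a and Ankrd37, both known to be induced by hypoxia, were lower with Pg. Kdm3a, a histone H3 demethylase, had 56.8, 56.7 and 61.6 CPM in cKO Pg, against 89.7, 97.4 and 102 CPM in cKO controls, and 59.4, 47.1 and 51 CPM in cHet Pg, against 83.3, 92 and 93.8 CPM in cHet controls. It fell by 0.72 ± 0.08 in cKO (adjusted p = 3.13e-06) and by 0.77 ± 0.08 in cHet (adjusted p = 1.47e-06). Ankrd37 (chromosome 8, 45996902 to 46005707, minus strand), an ankyrin repeat gene, held 3, 1 and 4 counts in cKO Pg, against 23, 28 and 35 in cKO controls, and 3, 8 and 5 counts in cHet Pg, against 14, 17 and 15 in cHet controls. Its log2 fold change was -3.17 ± 0.47 in cKO (adjusted p = 5.45e-05). In cHet it was -1.27 ± 0.45 (adjusted p = 0.0352), a call that was lost with DESeq2 (adjusted p = 0.0782), with no filter (adjusted p = 0.072) and in 5 of 12 fits that left out 1 library, those without cKO control 2, cHet Pg 1 or 3, or cHet control 2 or 3. Bnip3 and Bnip3l, which mark mitochondria for removal, and P4ha1, a collagen prolyl hydroxylase subunit, passed in neither genotype, with fold changes between -0.15 and 0.09. On library size alone Bnip3l was called lower in both genotypes, at -0.33 in cKO and -0.23 in cHet, and P4ha1 in cKO, at -0.39.

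Of 29 further HIF-1 targets tested, 8 rose and 6 fell in cKO, and 5 rose and 6 fell in cHet, which is 48.3% and 37.9% called against 34.0% and 36.1% of all genes. Hilpda, a lipid droplet protein gene, had the largest rise, at 83, 89.3 and 89.2 CPM in cKO Pg, against 8.93, 9.41 and 7.06 CPM in cKO controls. In cHet it had 104, 110 and 95.2 CPM with Pg, against 13.7, 7.98 and 9.77 CPM in controls. Its log2 fold change was 3.36 ± 0.15 in cKO and 3.29 ± 0.15 in cHet. Ero1l, an oxidase of the endoplasmic reticulum, also rose in both genotypes, whereas the transferrin receptor Tfrc and the chemokine receptor Cxcr4 fell in both.

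The promoters of 6 genes that changed in both genotypes, 5 higher and 1 lower, show how the short core of the HIF binding site occurs in genes of either direction. The windows below run from 250 bases before the start of transcription to 50 bases after it, 5′ to 3′ on the strand of the gene, from RefSeq on GRCm38.p6. Capitals mark ACGTG and GCGTG on either strand, so that CACGT and CACGC are the same words read from the other strand, and CACGTG, the E-box, holds ACGTG on both strands. The windows are Hif1a at chr12:73907617-73907916 (plus strand), Slc2a1 at chr4:119108495-119108794 (plus strand), Hk2 at chr6:82774405-82774704 (minus strand), Adm at chr7:110627407-110627706 (plus strand), Ddit4 at chr10:59951721-59952020 (minus strand) and Ankrd37 at chr8:45999801-46000100 (minus strand).
Hif1a: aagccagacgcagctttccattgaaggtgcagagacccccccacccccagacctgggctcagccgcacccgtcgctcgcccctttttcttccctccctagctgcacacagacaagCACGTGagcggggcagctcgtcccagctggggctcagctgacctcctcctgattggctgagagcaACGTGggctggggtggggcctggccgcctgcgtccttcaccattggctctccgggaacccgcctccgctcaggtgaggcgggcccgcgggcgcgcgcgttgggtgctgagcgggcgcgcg
Slc2a1: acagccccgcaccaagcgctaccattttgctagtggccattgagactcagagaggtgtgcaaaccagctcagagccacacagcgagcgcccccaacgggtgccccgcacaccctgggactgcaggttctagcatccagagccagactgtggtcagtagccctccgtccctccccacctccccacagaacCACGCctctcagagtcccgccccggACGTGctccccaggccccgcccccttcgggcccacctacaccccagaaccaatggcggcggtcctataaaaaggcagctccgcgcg
Hk2: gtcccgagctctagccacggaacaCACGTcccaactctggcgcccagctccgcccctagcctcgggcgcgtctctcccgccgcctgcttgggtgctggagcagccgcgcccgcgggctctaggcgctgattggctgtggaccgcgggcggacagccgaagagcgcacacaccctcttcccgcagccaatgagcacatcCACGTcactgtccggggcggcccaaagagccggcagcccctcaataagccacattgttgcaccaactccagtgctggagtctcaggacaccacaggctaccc
Adm: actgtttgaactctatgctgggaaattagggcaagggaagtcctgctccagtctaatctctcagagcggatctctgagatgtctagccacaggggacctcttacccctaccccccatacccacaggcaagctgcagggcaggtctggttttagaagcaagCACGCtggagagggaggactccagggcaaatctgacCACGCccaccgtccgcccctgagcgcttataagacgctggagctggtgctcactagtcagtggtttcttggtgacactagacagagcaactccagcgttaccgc
Ddit4: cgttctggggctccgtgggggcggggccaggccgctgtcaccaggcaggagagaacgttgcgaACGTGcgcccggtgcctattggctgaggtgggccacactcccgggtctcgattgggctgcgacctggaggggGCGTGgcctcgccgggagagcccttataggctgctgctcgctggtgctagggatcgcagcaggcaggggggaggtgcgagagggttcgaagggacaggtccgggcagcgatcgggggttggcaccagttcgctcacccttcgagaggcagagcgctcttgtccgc
Ankrd37: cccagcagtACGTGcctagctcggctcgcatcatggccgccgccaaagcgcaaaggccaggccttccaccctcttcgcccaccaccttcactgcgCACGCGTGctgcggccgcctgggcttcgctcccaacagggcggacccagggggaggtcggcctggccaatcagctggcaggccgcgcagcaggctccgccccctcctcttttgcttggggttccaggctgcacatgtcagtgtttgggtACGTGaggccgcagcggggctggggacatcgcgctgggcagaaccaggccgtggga

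Ankrd37, which was lower with Pg, holds 2 ACGTG and 2 GCGTG words, as against 1 of each in Slc2a1 and Ddit4, which were higher. The 2 GCGTG words of Ankrd37 overlap in the single stretch CACGCGTG, with 1 on each strand. RefSeq windows were found for 35 of the 37 genes, 53 windows in all, since several genes have more than 1 start. ACGTG was in 52.8% of them and in 19.6% of all 32851 windows of the same length, GCGTG in 52.8% and 32.4%, and the E-box CACGTG in 11.3% and 7.15%. At least 1 of the 2 core words was in 77.4% of the windows of these genes and in 43.8% of all windows. The median GC content was 62% in the windows of these genes and 52.7% in all windows, and its part in the difference was not tested. By response to Pg, 11 of 12 genes higher in both genotypes had a core word in at least 1 window, as did all 3 genes lower in both and 13 of 15 genes called in neither.

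Between the genotypes the 37 genes differed little. Under Pg, cKO against cHet called none of them in edgeR's test and none in DESeq2, where edgeR called 1.85% of all genes. At an unadjusted p under 0.05 there were 1687 of all 13800 genes and 7 of the 37. Those 7 were Hif1a, Hk3, Pfkl, Pfkp, Vegfa, Adm and Ddit4, with log2 differences from -0.88 (Adm) to 0.29 (Vegfa). In controls 1 gene was called, which is 2.7% against 5.15% of all genes (2.13% higher in cKO). This was Hif1a, with the control values given above: 269, 263 and 287 CPM in cKO and 209, 227 and 216 CPM in cHet, with no overlap. Its log2 difference was 0.33 ± 0.08 (adjusted p = 0.0203), lost without cKO control 3 (adjusted p = 0.105) or without cHet control 3 (adjusted p = 0.0791). Under Pg the Hif1a difference was 0.19 ± 0.08 (adjusted p = 0.327), and the libraries overlapped. In controls Slc2a1 lay 0.26 higher in cKO and did not pass (adjusted p = 0.0707). It passed with no filter (adjusted p = 0.0119) and without cKO Pg 3 (0.0493) or cHet control 1 (0.0176). As lower in cKO controls, Hk3 passed with no filter (adjusted p = 0.0417) and Mxi1 with only the groups compared (0.0195). Gapdh did so with only the groups compared (adjusted p = 0.0427) and without cKO Pg 2 (0.0128).

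Averaged over Pg and control, 2 genes were higher in cKO, 5.41% against 4.91% of all genes (2.13% higher in cKO). Hif1a differed by 0.26 ± 0.06 (adjusted p = 0.00891) and kept this call in each alternative, at adjusted p up to 0.0333. Pfkl differed by 0.18 ± 0.05 (adjusted p = 0.0344), a call lost in 10 of 12 fits that left out 1 library, at up to 0.105, and held without cKO control 1 or cHet Pg 3. DESeq2 called 3, adding Hk3 as lower in cKO, at -0.23 ± 0.07 (adjusted p = 0.0421). Hk3 also passed with no filter (adjusted p = 9.28e-05) and without cKO control 1, cHet Pg 1 or cHet control 3. Beside these differences, the summed stromal markers were lower in cKO than in cHet without overlap, as given above, and the macrophage marker Lyz2 lay at 9457 to 10978 CPM in cKO Pg and 8746 to 10548 CPM in cKO controls, against 17904 to 22004 CPM in cHet Pg and 17628 to 20791 CPM in cHet controls. The part of these markers in the Hif1a and Pfkl differences was not tested. In bulk RNA, fewer cells of a type and less RNA per cell cannot be told apart.

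**Figure D4:**
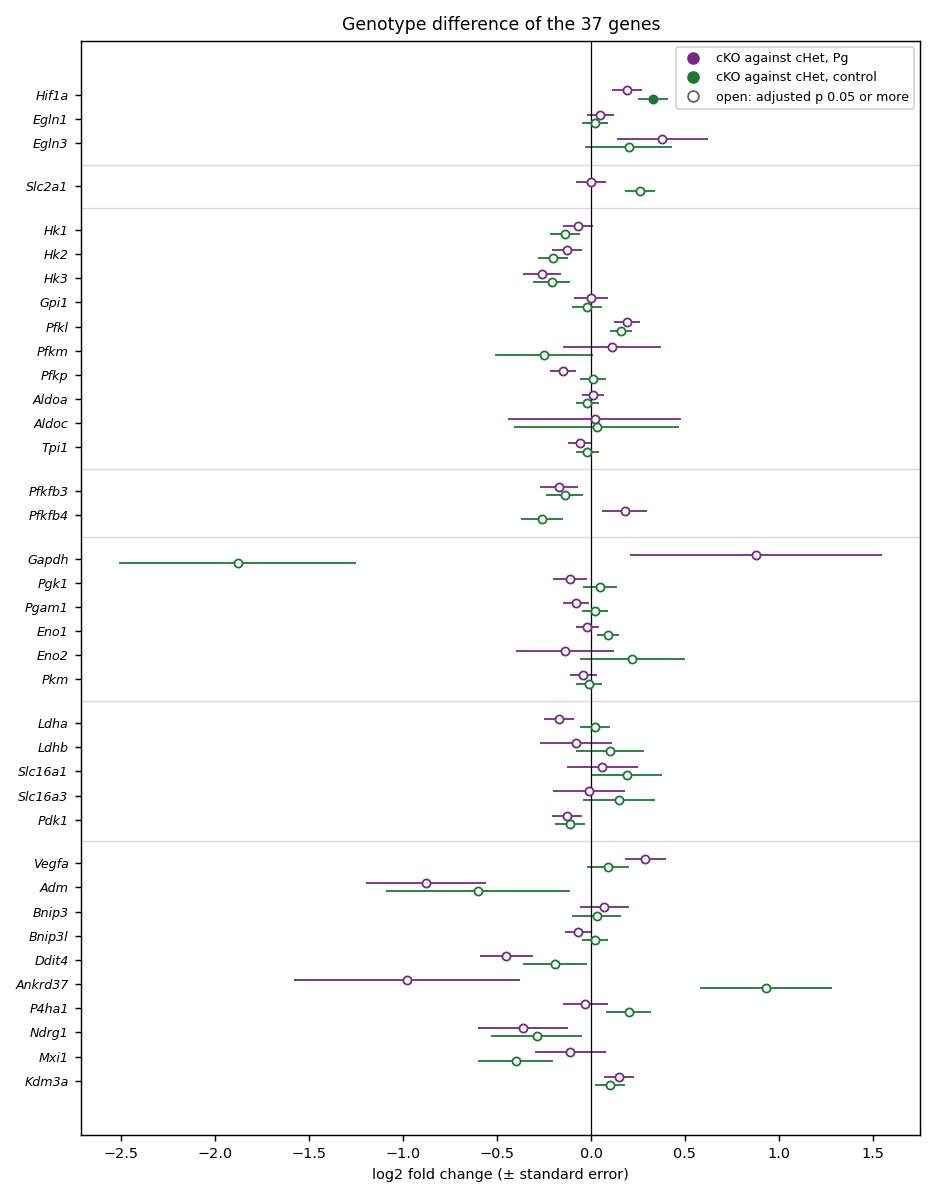
The log2 difference of each of the 37 genes between cKO and cHet is plotted with its standard error, under Pg in purple and in controls in green, with filled points past an adjusted p of 0.05. The Hif1a difference in controls, at 0.33, is the single filled point, and the other genes lie within 0.5 of 0 apart from Gapdh, Adm and Ankrd37.

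The response to Pg was set against genotype by the interaction, the log2 response in cKO minus that in cHet. It called none of the 37 genes in edgeR's test and none in DESeq2, where edgeR called 0.717% of all genes. At an unadjusted p under 0.05 there were 1742 of all 13800 genes and 4 of the 37. The 4 were Ankrd37 at -1.90 ± 0.70, Slc2a1 at -0.26 ± 0.11, Pfkfb4 at 0.44 ± 0.16 and Gapdh at 2.76 ± 0.91. Pfkfb4 passed without cHet Pg 2, at 0.63 ± 0.13 (adjusted p = 0.0412), and with no filter on low counts, at 0.45 ± 0.13 (adjusted p = 0.0404). It also passed with the term for the library split described below, at 0.45 ± 0.13 (adjusted p = 0.0486). A gene called in 1 genotype alone is thus not shown to respond differently in the other.

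Of the 83 further pathway genes, 3 differed between genotypes under Pg and 4 in controls, or 3.61% and 4.82%, against 1.85% and 5.15% of all genes. Epas1, which encodes HIF-2alpha, had 4.71, 6.19 and 5.44 CPM in cKO Pg against 12.2, 9.29 and 9.38 CPM in cHet Pg, and 4.7, 4.98 and 4.67 CPM in cKO controls against 8.46, 7.63 and 9.59 CPM in cHet controls. It was lower in cKO by -0.92 ± 0.16 under Pg (adjusted p = 0.00306) and -0.84 ± 0.16 in controls (adjusted p = 0.00473), the opposite direction to Hif1a. Epas1 is also expressed by stromal cells, whose markers were lower in the same libraries, and their part in its difference was not tested. Prps2, which makes phosphoribosyl pyrophosphate for nucleotide synthesis, was higher in cKO, at 0.85 ± 0.10 under Pg and 0.70 ± 0.10 in controls. Flt1, a receptor for Vegfa, was lower in cKO controls than in cHet controls, at -1.83 ± 0.47 (adjusted p = 0.031).

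The within-group split of the libraries also ran through the glycolysis and hypoxia genes. In all 4 groups, Egln3, Gpi1, Pfkm, Aldoc, Slc16a3, Ndrg1 and Kdm3a were higher in each library on the positive side, where Itgax was low, than in the others of its group. Hk3, Eno2, Pkm, Ldha, Ldhb, Slc16a1 and P4ha1 were lower there in all 4 groups. These 14 genes make 37.8% of the 37, beside 17.7% of all genes. Aldoc shows it most plainly: 19.5 CPM in cKO Pg 3 beside 9.95 and 15.1 CPM in the other 2, 22.2 and 18.9 CPM in cKO controls 2 and 3 beside 10.2 CPM in the first, and 23.1 CPM in cHet Pg 1 beside 10.5 and 10.4 CPM. The standard deviation of log2 CPM within groups was 0.58 for Aldoc, against a median of 0.14 over the 37 genes. With a term for the split, which was chosen after the data were seen, Pg changed 22 genes in cKO and 24 in cHet. Slc16a3 then passed in both genotypes, at 0.48 ± 0.08 in cKO (adjusted p = 0.000147) and 0.63 ± 0.08 in cHet (adjusted p = 7.4e-06), and so did Gpi1 and Aldoa, while the call of Ankrd37 in cHet was lost (adjusted p = 0.055). The same term called 6 genes between the genotypes under Pg, namely Hif1a and Pfkl higher in cKO and Hk3, Ldha, Ddit4 and Ndrg1 lower. The split was drawn from the within-group spread of these same libraries, so a term for it takes up part of that spread by construction. Calls gained with the term are therefore no support for a change in those genes. No share of all genes is given for this term, so a general rise in calls cannot be told apart.

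**Figure D5:**
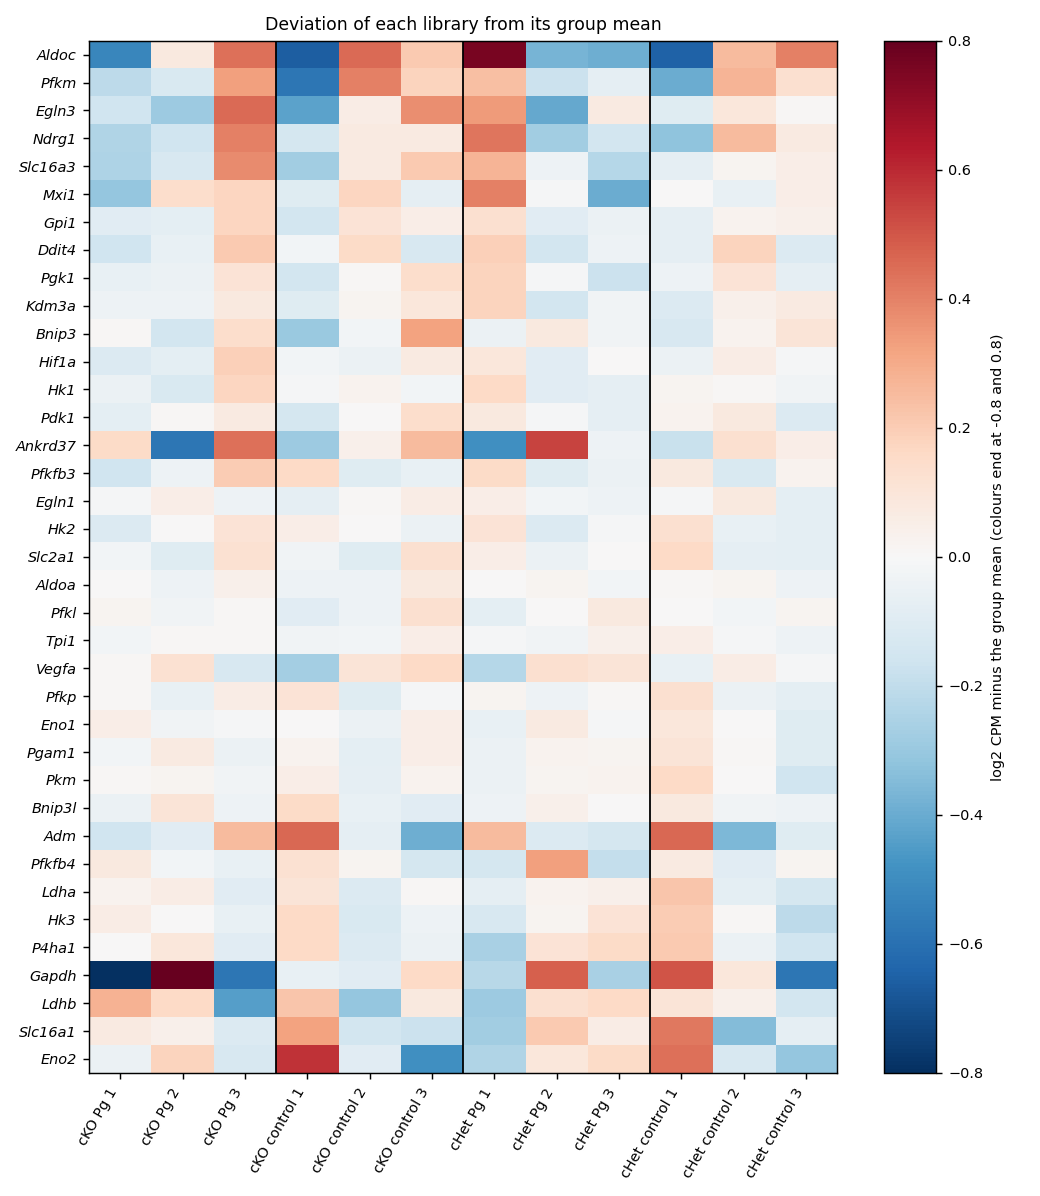
Each cell gives the log2 CPM of a gene in a library minus the mean of its group, for the 37 genes and 12 libraries, with genes sorted by how closely they follow the shared component and colours that end at -0.8 and 0.8. Aldoc is among the genes raised in cKO Pg 3 and cHet Pg 1 and lowered in the first control library of each genotype, and Eno2 is among those with the reverse pattern.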

How the data were processed

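Poly-A RNA of 12 libraries was measured, 3 in each of 4 groups. The deposited values are raw counts of reads for each gene. The submitters' processing notes list HISAT2 2.0.5, featureCounts 1.5.0-p3 and fastp, with the build mm10. Annotation release, strand setting and handling of multiply mapped reads were not stated in those sources, so counts of near-identical or overlapping genes are uncertain. Counts were filtered (filterByExpr), scaled by TMM and tested with edgeR 4.0.16 in R 4.3.3: a group-means model over 12 libraries, robust quasi-likelihood F test, Benjamini-Hochberg adjustment over 13800 genes, threshold 0.05. This test gives every adjusted p printed without another tool's name. A standard error is the absolute log2 fold change divided by sqrt(F). The levels given are CPM on TMM-scaled sizes, divided by deposited gene length where genes are compared. Of the 37 gene positions, 35 matched GENCODE M21. The script was tested on simulated data.

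Alternatives were DESeq2 1.42.0, its size factors, library size alone, no filter, only the groups compared, a replicate block, each library left out in turn and, added after the data were seen, a term for the library split. Genes, lists and the named-gene rule (all 37, with library values for those past the threshold and Hif1a) were chosen with earlier results of these data known.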

Additional observations from a re-analysis of the deposited data

How the results depend on the processing

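Of 4140 refitted fold changes of the 37 genes, 3964 kept their side of the threshold with no change of sign by 1 standard error or more, 67 lost a call, 77 gained one, 5 reversed and 27 changed sign by at least 1 standard error without a call. The 5 came with library size alone: for Pg in cKO, Tpi1 at -0.23 and Pgam1 at -0.16, and in cHet Tpi1 at -0.20, Pgam1 at -0.06 and Bnip3l at -0.23. Counts of the 37 called for Pg stayed within 1.5 times in each alternative (leaving out 1 library: 14 to 17 in cKO, 17 to 23 in cHet). Counts between genotypes moved. Without a filter they were 2 under Pg, 3 in controls, 6 for the mean and 1 for the interaction, and with the library split term 6, 6, 7 and 1. With only the groups compared, controls gave 3. Leaving out 1 library gave 0 in each fit under Pg, 0 to 2 in controls, 1 to 4 for the mean and 0 to 1 for the interaction. For the further pathway genes, the split term gave 8 under Pg, 14 in controls, 13 for the mean and 7 for the interaction. Without a filter controls gave 9 and the interaction 1, as did the interaction with DESeq2. Leaving out 1 library gave 4 to 5 for the mean, against 7 with all 12, and 0 to 1 for the interaction. For these alternatives no share of all genes is given here, so a general change in calls cannot be told apart. The cause of these moves was not tested.

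For libraries of equal replicate number, correlations of their deviations lay between -0.29 and 0.32, over 0.1 in 5 of 18 pairs. All 5 joined cKO Pg, cKO control and cHet control, at number 1 (0.15, 0.17 and 0.32) or number 3 (0.14 and 0.14). Pairs with cHet Pg lay between -0.29 and 0.05. Whether equal numbers pair the libraries was not tested. With the replicate block, 16 genes were called for Pg in cKO and 20 in cHet; Ndrg1 in cKO and Pgam1 in cHet (adjusted p = 0.0557) lost their calls and Vegfa in cHet gained one, and no other call of the 37 changed. Adm and Ankrd37, at 1 to 43 counts a library, are limited by depth.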
